A study of Mus musculus with 4 samples.

Results

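The mir-466 and mir-297 families are microRNA genes of rodent simple-repeat origin, most of them packed into 1 intron of the Polycomb gene Sfmbt2. All entries of the deposited table whose names begin with mir-466 or mir-297 were taken by name alone, which gave 35 of 626 entries, 29 of mir-466 and 6 of mir-297. Small RNA was sequenced from embryoid bodies (EBs) at day 8 and from embryonic stem cells (ESCs) at day 0, with 2 samples named in each group. Both came from CGR8, a mouse ESC line that grows without feeder cells, for which the labels name C57BL/6 as background, 129P2/OlaHsd as donor strain and passages 5 to 13. EBs, whole aggregates in which stem cells differentiate into mixed cell types, were grown without leukemia inhibitory factor (LIF) in 20% serum, for 2 days as hanging drops of 1000 cells and then for 6 days in suspension. ESCs were kept undifferentiated with LIF at 100 U/ml in 10% serum. All 4 samples derive from this 1 line, and no genetic change is named.

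A microRNA is cut from a hairpin precursor, and bases 2 to 8 of the mature strand, the seed, pair with target messages. The intronic genes of Sfmbt2 are transcribed with a host gene that is imprinted and active from the paternal copy in the mouse placenta, where this microRNA cluster is best known. Many of the hairpins hold simple repeats such as alternating U and G, and gene copies resemble one another closely. A letter after the number (mir-466b) marks a related mature sequence, and a final number (mir-466b-3) marks a gene copy with the same or nearly the same mature sequence.

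The sequences below show the repeat character of some of these entries. RefSeq (GRCm38.p6) held a sequence for 5 of the 35 entries, all of them outside Sfmbt2. In the mature strands the seed is in capitals.
miR-466k: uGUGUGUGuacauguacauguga
miR-466j: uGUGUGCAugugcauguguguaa
miR-466i-3p: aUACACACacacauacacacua
miR-466q: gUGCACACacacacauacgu
These 4 mature strands carry 4 different seeds. The first lies at chr3:85467396-85467418 on the plus strand and holds an unbroken run of 9 alternating U and G, and miR-466j, at chr10:60960802-60960824 on the plus strand, holds a run of 7. The longest run of alternating A and C was 11 bases in miR-466i-3p (chr13:17747552-17747573, plus strand) and 12 in miR-466q (chr3:28419988-28420007, plus strand). The hairpins of mir-466k, with its mature strand in capitals, and of mir-297a-1 show one with a longer run and one with short runs.
mir-466k hairpin: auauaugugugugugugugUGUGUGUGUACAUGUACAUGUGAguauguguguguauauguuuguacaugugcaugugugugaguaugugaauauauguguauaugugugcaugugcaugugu
mir-297a-1 hairpin: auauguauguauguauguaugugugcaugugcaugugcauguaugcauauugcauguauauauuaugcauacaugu
The mir-466k hairpin spans chr3:85467377-85467498 on the plus strand and holds an alternating U and G run of 23 bases. That of mir-297a-1 spans chr7:10958437-10958512 on the minus strand, and its longest such run is 6 bases.

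The deposited values are counts of reads per entry, summed over both arms or not, which the table does not say. The total microRNA count was 139104 and 139360 in the EB samples, against 557250 and 557643 in the ESC samples, so the EB libraries were about 4 times shallower. In each group the gap between the 2 columns was smaller than sampling noise, so their mean was used as 1 sample. That leaves 1 sample per group, no replicate check and no p-value. Nothing in the labels says that the samples came from separate cultures. A fold below is the ratio of mean counts, EBs over ESCs, after TMM scaling (trimmed mean of M-values), and its exact 95% interval covers counting error only. It compares these libraries and not the conditions. TMM scaling put log2 folds 0.28 lower than library totals do. Entries are called higher or lower from a difference of 2-fold on. Among marker microRNAs, the mir-290 to mir-295 entries of pluripotent cells took 52.0% of EB counts and 53.0% of ESC counts. The mir-302 and mir-367 entries took 6.53% of EB counts and 0.0341% of ESC counts. Within the first of these lists mir-294 was at a log2 fold of 2.04, while the other 5 entries lay between -2.89 for mir-291a and -0.68 for mir-292a. Neuronal mir-124 and mir-9 took 0.188% of EB counts and 0.957% of ESC counts, and endothelial mir-126a took 0.347% of EB counts and 0.250% of ESC counts. Blood entries took 0.114% of EB counts and 0.253% of ESC counts, and mesenchymal mir-143 and mir-145a took 0.0384% of EB counts and 0.234% of ESC counts. In the blood list mir-142a was at a log2 fold of 2.65 and mir-150 at -3.58. Liver mir-122 and the 2 muscle entries in the table, of 5 listed, each summed to 1 count per EB column and 0 per ESC column. The part of these cell types in the results below was not tested.

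The mir-466 and mir-297 families were more abundant in EBs than in ESCs. Of the 35 entries, 31 passed the filter on low counts, and 22 of these were at least 2-fold higher in EBs. The other 9 stayed under that limit, and none was lower by as much. Over all 367 measured entries of the table, 33.5% passed the limit as higher in EBs, and 30.2% passed it as lower. The median log2 fold was 2.20 over the 31 measured members, and 0.07 over all 367. None of the 22 had an interval that included no difference. In bulk samples, fewer cells of a type and less RNA per cell cannot be told apart.

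The summed mir-466 counts were 1578 and 1601 in the EB columns, against 1641 and 1607 in the ESC columns, nearly equal counts from libraries of unequal depth. As shares, mir-466 took 1.14% of EB counts (exact binomial interval 1.09 to 1.20) and 0.291% of ESC counts (0.277 to 0.306), and the scaled sum was 3.22-fold higher in EBs (3.0 to 3.45). The mir-297 entries had 347 and 348 counts in EBs, against 292 and 301 in ESCs. Their share was 0.250% of EB counts (0.224 to 0.277) and 0.0532% of ESC counts (0.0473 to 0.0596), a 3.86-fold higher sum (3.29 to 4.52). On the log2 scale this is 1.95, and it was 1.34 in the authors' quantile-normalized values. Reads counted at more than 1 copy would enter these sums repeatedly and make the intervals too narrow. With 1 value per letter, the mean of its copies, the sums were 3.64-fold (3.32 to 4.0) and 5.28-fold higher (4.20 to 6.66).

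**Figure D1:**
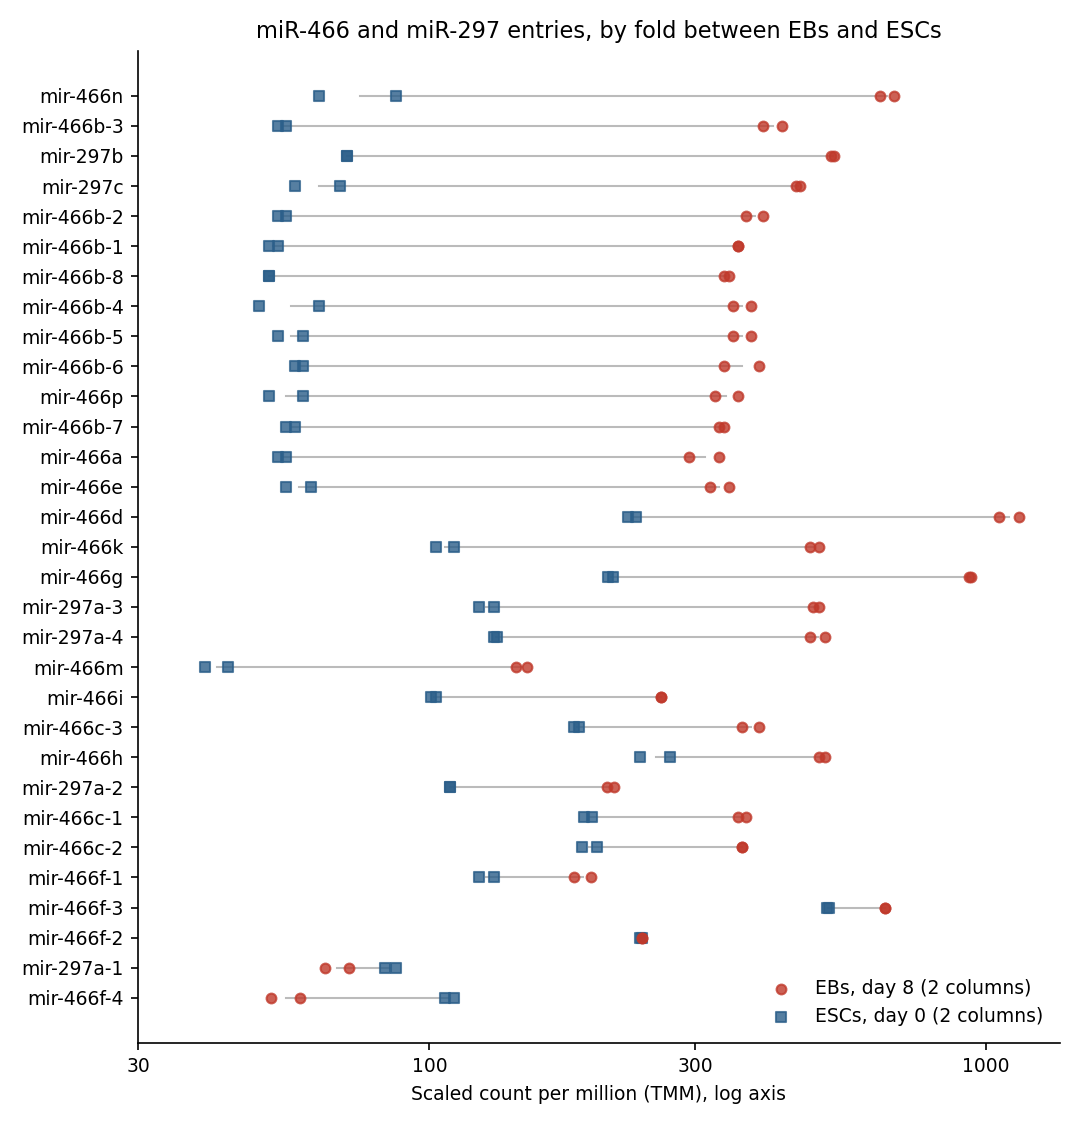
CPM after TMM scaling (log axis) of the 31 measured mir-466 and mir-297 entries, ordered by fold, with 1 point for each deposited column of EBs (circles) and ESCs (squares) and a line joining the group means. The columns of a group lie close together, and the lowest rows, mir-297a-1 and mir-466f-4, are the ones with EBs left of ESCs.

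Levels are given as CPM, read counts scaled by the TMM library size. They are not divided by length, since mature microRNAs are of nearly the same length. The most abundant member in EBs was mir-466d, at 1100 CPM in EBs and 231 CPM in ESCs, from 162 and 176 counts in the EB columns against 119 and 115 in the ESC columns. The mean EB count lay above the mean ESC count even before scaling for depth, and the fold was 4.75 (3.73 to 6.07). It ranked 76th of all 626 entries in EBs and 168th in ESCs. The most abundant member in ESCs was mir-466f-3, at 657 CPM in EBs and 520 CPM in ESCs, with 101 and 101 counts in EBs against 262 and 264 in ESCs. Its fold of 1.26 (0.994 to 1.60) had an interval that included no difference. The families were thus of middling abundance in both libraries, and the member at the top was not the same one.

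The highest fold belonged to mir-466n, with 99 and 105 counts in EBs against 44 and 32 in ESCs. That is 664 CPM in EBs and 75.2 CPM in ESCs, 8.83-fold higher (6.03 to 13.2). The ESC columns differed by more here than for most members. The entry mir-466g had 143 and 144 counts in EBs, against 108 and 106 in ESCs, and was 4.41-fold higher (3.41 to 5.72). Its hairpin was the only one of 34 that shared no stretch of 20 bases with another member, and that of mir-466n shared one with 3 other members and with 3 mir-467 or mir-669 entries. Over all 34 hairpins, 185 of 561 pairs shared such a stretch. The part of shared reads in the folds was not tested.

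The mir-466b letter, with 8 copies in Sfmbt2, moved as a block. Each copy was higher in EBs, with mean counts of 51.5 to 63.5 per copy in EBs against 26 to 29.5 in ESCs, and log2 folds of 2.57 to 2.93. The most abundant copy, mir-466b-3, had 66 and 61 counts in EBs, against 27 and 28 in ESCs, and was 7.60-fold higher (4.79 to 12.4). The copy mir-466b-2 had 57 and 61 counts in EBs, against 28 and 27 in ESCs, a 7.06-fold difference (4.42 to 11.5). In all 8 copies the mean EB count lay above the mean ESC count before scaling. Single-copy letters with counts like these were mir-466a, mir-466e and mir-466p. The entry mir-466a had 51 and 45 counts in EBs against 28 and 27 in ESCs, 5.74-fold higher (3.52 to 9.54). For mir-466e the counts were 53 and 49 in EBs against 28 and 31 in ESCs, 5.69-fold higher (3.55 to 9.28). For mir-466p they were 55 and 50 in EBs against 26 and 30 in ESCs, 6.17-fold higher (3.83 to 10.1). The hairpins of mir-466e and mir-466p shared a stretch of 20 bases with all 8 mir-466b copies. How reads that match several entries were counted is not given, so these nearly equal folds may rest on the same reads and are not separate evidence.

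The mir-466c letter overlapped mir-466b in EB counts but stood above it in ESC counts. Its 3 copies had mean counts of 56 to 58 in EBs, within the range of the mir-466b copies, but of 93 to 98 in ESCs, above all of them. The copy mir-466c-3 had 56 and 60 counts in EBs against 92 and 94 in ESCs, and lay just past the limit at 2.05-fold higher (1.45 to 2.88). Its log2 fold was 1.04, against 0.98 with DESeq2 size factors and 0.48 in the quantile-normalized values, where none of the 3 copies passed the limit. The copy mir-466c-2 had 56 and 56 counts in EBs against 101 and 95 in ESCs and fell short at 1.88-fold (1.33 to 2.64), as did mir-466c-1 at 1.89-fold (1.34 to 2.65). Summed over copies, mir-466c was 1.94-fold higher (1.59 to 2.35) and mir-466b 6.65-fold higher (5.65 to 7.84). The hairpins of all 3 mir-466c copies also shared a stretch of 20 bases with all 8 mir-466b copies. Among pairs of measured members of the same letter, the median difference in log2 fold was 0.13 over 43 pairs. Most of these were pairs of mir-466b copies, while copies of mir-466f and mir-297a differed by up to 1.55 and 2.28. The median difference was 1.21 over 117 pairs of other letters that shared a stretch and 1.18 over 275 pairs that shared none. These pairs reuse the same entries, so the medians are a description.

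The mir-466f letter had the smallest summed fold, 1.15 over its 4 copies (0.960 to 1.36), while its single copies ran from a log2 fold of -0.98 to 0.58. In Sfmbt2, mir-466f-1 had 28 and 30 counts in EBs against 66 and 62 in ESCs, a fold of 1.49 (0.927 to 2.35). The copy mir-466f-2 had 37 and 37 counts in EBs against 121 and 122 in ESCs, a fold of 1.00 (0.674 to 1.46). With mir-466f-3, described above, the intervals of all 3 single copies included no difference, while their sum was 1.23-fold higher (1.02 to 1.47). Reads counted at more than 1 copy would make the interval of this sum too narrow, so it does not settle a difference. In the authors' quantile-normalized values, mir-466f-1 was at a log2 fold of 0.00, while mir-466f-2 and mir-466f-3 were at -0.58 and -0.24, so the direction of the last 2 depended on scaling. The fourth copy, mir-466f-4 on chromosome 13, had 9 and 8 counts in EBs against 56 and 54 in ESCs, a log2 fold of -0.98 (-2.22 to 0.08). It was at -1.03 with DESeq2 size factors and -1.19 in the quantile-normalized values, and at -1.04 without the second ESC column. Without the first ESC column it was also just past the limit as lower. The 4 copies together made up 11.0% of mir-466 counts in EBs and 31.0% in ESCs, while the 8 mir-466b copies made up 28.3% in EBs and 13.7% in ESCs. In these summed counts the make-up of the family shifted by letter between the libraries. Reads counted at more than 1 copy would raise the shares of letters with several copies.

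Among the remaining letters, mir-466h had 79 and 77 counts in EBs against 137 and 121 in ESCs, a 1.99-fold difference (1.48 to 2.66) just under the limit. The entry mir-466m, the first of the cluster, had 22 and 23 counts in EBs against 22 and 20 in ESCs and was 3.53-fold higher (1.86 to 6.72). Equal raw counts here still gave a difference, since the EB libraries were shallower. Outside Sfmbt2, mir-466k had 74 and 77 counts in EBs against 56 and 52 in ESCs, 4.60-fold higher (3.20 to 6.65). Its hairpin, printed above, shared a stretch of 20 bases with 15 other members. The entry mir-466i had 40 and 40 counts in EBs against 51 and 52 in ESCs and was 2.56-fold higher (1.65 to 3.94), but its log2 fold in the quantile-normalized values was 0.86.

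The 4 entries that did not pass the filter were near the floor of 3 counts, which corresponds to 21.6 CPM of the library total in the first EB column and 5.38 CPM in the first ESC column. For mir-466o, with 3 and 4 counts in EBs and 0 in both ESC columns, the level was at least 3.84-fold higher in EBs when the ESC mean is set to 3 counts and the EB mean is taken as exact. The exact interval, which also covers counting error in EBs, starts at 1.76-fold. The entry mir-466j averaged 2 counts in EBs and 2.5 in ESCs, and mir-466l averaged 2.5 in EBs and 0.5 in ESCs. At this depth no difference could be detected for these. The entry mir-466q had 5 and 4 counts in EBs against 2 and 6 in ESCs, and the interval of its ratio, 0.747 to 19.2, included no difference.

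In the mir-297 family the letters b and c were furthest apart between the groups. The entry mir-297b had 82 and 81 counts in EBs against 36 and 36 in ESCs, 7.45-fold higher (4.97 to 11.4). The entry mir-297c had 70 and 71 counts in EBs against 29 and 35 in ESCs, 7.25-fold higher (4.71 to 11.4). In both, the mean EB count lay above the mean ESC count before scaling. The letter a had 4 copies that did not move together. The copy mir-297a-3, near the downstream end of the cluster, had 77 and 75 counts in EBs against 62 and 66 in ESCs, 3.91-fold higher (2.76 to 5.54). Its neighbour mir-297a-4 had 74 and 79 counts in EBs against 66 and 67 in ESCs, 3.78-fold higher (2.69 to 5.34).

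The copy mir-297a-2, near the upstream end, had 33 and 32 counts in EBs against 55 and 55 in ESCs and lay at 1.94-fold (1.22 to 3.05). The copy mir-297a-1 on chromosome 7 had 11 and 10 counts in EBs against 44 and 42 in ESCs, and its log2 fold of -0.32 (-1.45 to 0.68) had an interval that included no difference. Copies of mir-297a thus differed among themselves by up to 2.28 on the log2 scale, whereas those of mir-466b differed by at most 0.35.

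Of the 35 entries, 34 were placed by name in RefSeq (GRCm38.p6) and 28 of these lie in Sfmbt2 on its own strand. The entry mir-466a was not placed by name. In the annotation (GENCODE M21, GRCm38) the 28 lie between exons 10 and 11 of the transcript that spans chr2:10372450-10595253, in an intron of 62.5 kb at chr2:10461473-10523944. With the mir-467 and mir-669 entries they cover 51.6 kb, from 10466663 to 10518279. Of the 26 measured members in the intron, 19 passed the limit as higher in EBs, and the 28 summed to 3.42-fold more (3.19 to 3.66). Of the 6 placed elsewhere, 4 were measured and 2 were at least 2-fold higher, mir-466k on chromosome 3 and mir-466i on chromosome 13. All 6 summed to 141 and 141 counts in EBs against 211 and 209 in ESCs, 2.21-fold more (1.77 to 2.75). The 2 members with log2 folds under 0, mir-466f-4 and mir-297a-1, both lie outside Sfmbt2, and both intervals included no difference. In the quantile-normalized values mir-466f-2 and mir-466f-3 of the intron were also under 0, at -0.58 and -0.24. With TMM scaling mir-669d and mir-669d-2 of the intron were at -0.68 and -0.63. Of the 6 placed outside Sfmbt2, mir-466q lies in an intron of Tnik on its strand, and mir-466i and mir-466k lie opposite Cdk13 and Gm37240. For the other 3, no annotated gene other than a microRNA gene spans the whole hairpin. Partial overlap was checked only for exons on the same strand, and none was found.

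**Figure D2:**
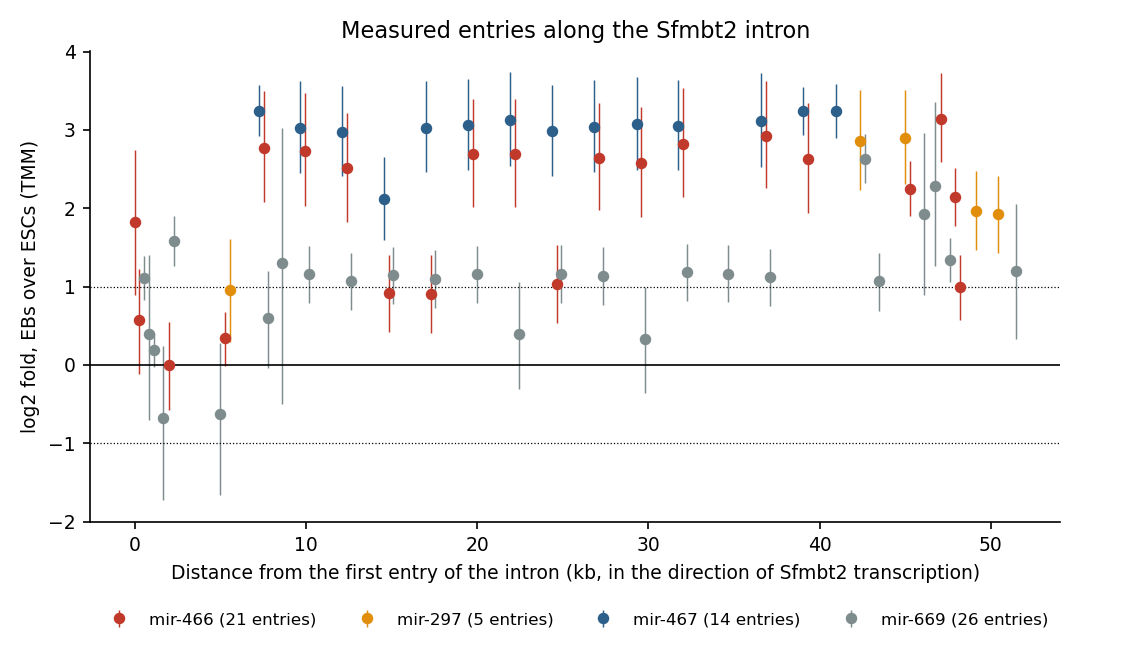
The log2 fold of each measured entry in the Sfmbt2 intron, with its exact 95% counting interval, against its distance in kb from the first entry in the direction of transcription, by family. Most entries in the first 6 kb lie under 1, and from there on mir-467 entries lie near 3 apart from mir-467b at 2.12, most mir-466 entries above 2 and most mir-669 entries near 1.

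Along the intron most measured members near the upstream end lay under 2-fold, as did some further along. Of the 5 measured members closest to the upstream end, mir-466m was at least 2-fold higher, and mir-466f-1, mir-466f-2, mir-466f-3 and mir-297a-2 lay under 2-fold. Over the 26 measured members of the intron, the log2 fold went with the distance from the first entry at Pearson's r of 0.47 and Spearman's rho of 0.40. These values come from 1 library per group, and neighbours share letters, so the coefficients describe this cluster only. Flat and steep members also stood close together, as mir-466n at 8.83-fold and mir-466h at 1.99-fold lie 47.1 and 48.2 kb from the first entry.

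The middle of the cluster repeats a unit in which a mir-467, a mir-466 and a mir-669 entry follow each other within 600 to 611 bases. There were 12 such units with all 3 entries measured. Copies of a letter may rest on the same reads, so the 12 units are not separate observations. In all 12, the mir-467 entry had a higher fold than its mir-466 neighbour, and in 9 the mir-466 entry had a higher fold than its mir-669 neighbour. The exceptions were the 3 units that hold mir-466c-1, mir-466c-2 and mir-466c-3. In the 8 units with a mir-466b copy, the median log2 fold of that copy was 2.71, and in the 3 units with mir-466c it was 0.92. The 10 mir-467a copies of these units had a median of 3.04, the 10 mir-669a copies 1.14 and the 2 mir-669p copies 0.36. Entries of the same short unit thus differed by family and letter. Copies of a letter stayed within a narrow range over the units for mir-466b, mir-467a and mir-669a, apart from mir-669a-3 at 0.60. The other 9 mir-669a copies lay between 1.07 and 1.18.

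**Figure D3:**
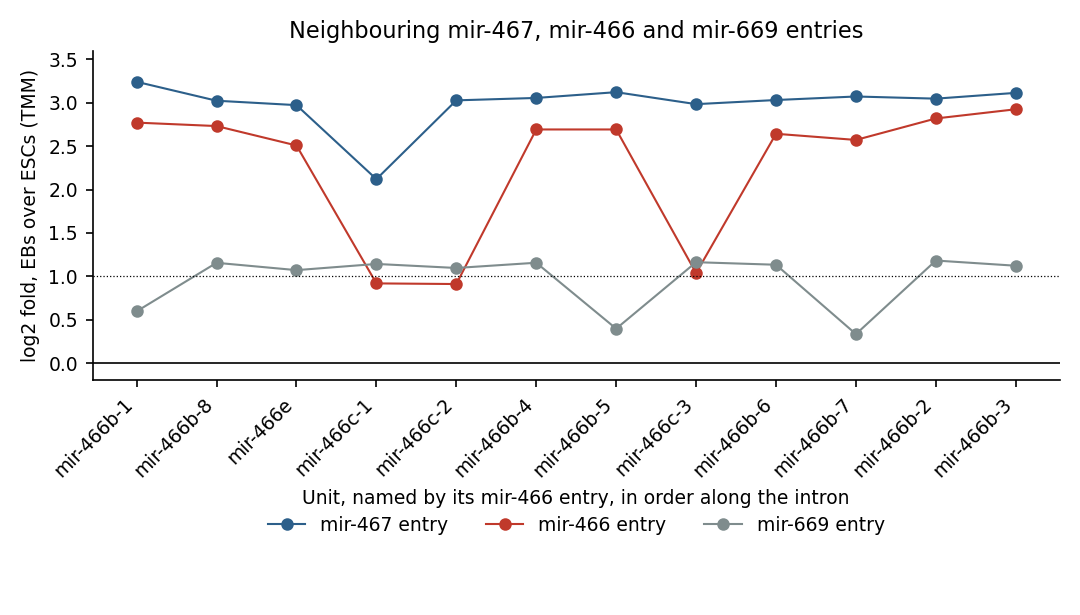
The log2 fold of the neighbouring mir-467, mir-466 and mir-669 entries in each of the 12 repeated units, in order along the intron, with each unit named by its mir-466 entry. The mir-466 line lies between 2.51 and 2.93 in the mir-466b and mir-466e units and between 0.91 and 1.04 in the 3 mir-466c units, while the mir-669 line stays at or below 1.18.

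The mir-467 and mir-669 families, taken by name as the entries most like these, framed the mir-466 and mir-297 values on both sides. All 14 measured mir-467 entries were at least 2-fold higher, with a median log2 fold of 3.05 and a summed fold of 8.48 (7.79 to 9.25). Of the 14, 10 were mir-467a copies with nearly equal counts, which may rest on the same reads and make this interval too narrow. Of 26 measured mir-669 entries, 19 were at least 2-fold higher and none at least 2-fold lower, with a median of 1.14 and a summed fold of 2.11 (2.01 to 2.23). Of the 19, mir-669k had an interval that included no difference, and in the quantile-normalized values 7 mir-669 entries and 14 mir-467 entries were at least 2-fold higher. Both mir-669k and mir-669m-2 passed the filter only through their EB counts, so their calls as higher depend on it. The mir-669 counts are among the rows that had to be moved up by 1, and those of mir-466, mir-297 and mir-467 are not. The 25 measured mir-466 entries had a median of 2.25 with 18 at least 2-fold higher, and the 6 mir-297 entries had a median of 1.94 with 4 higher. The median over all measured entries other than mir-466 and mir-297 was -0.17, and 30.1% of these were at least 2-fold higher. No difference between families was tested, since there was 1 sample per group. The hairpins of 14 of the 34 members shared a stretch of 20 bases with a mir-467 or mir-669 entry. None of these was a measured mir-467 entry, as the only mir-467 hairpin among them was that of mir-467g, which did not pass the filter.

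The most abundant mir-467 entries were mir-467e, with 340 and 342 counts in EBs against 120 and 118 in ESCs, and mir-467c, with 312 and 312 counts in EBs against 109 and 108 in ESCs. They were 9.43-fold (7.63 to 11.7) and 9.46-fold higher (7.58 to 11.9). The most abundant mir-669 entries differed from each other. Averages were 232 counts in EBs and 669.5 in ESCs for mir-669b, a fold of 1.14 (0.978 to 1.33). For mir-669c they were 241 counts in EBs and 128 in ESCs, 6.19-fold higher (4.98 to 7.74). The mir-669 family thus held both flat and steep members, as mir-466 did with mir-466f-3 and mir-466n.

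**Figure D4:**
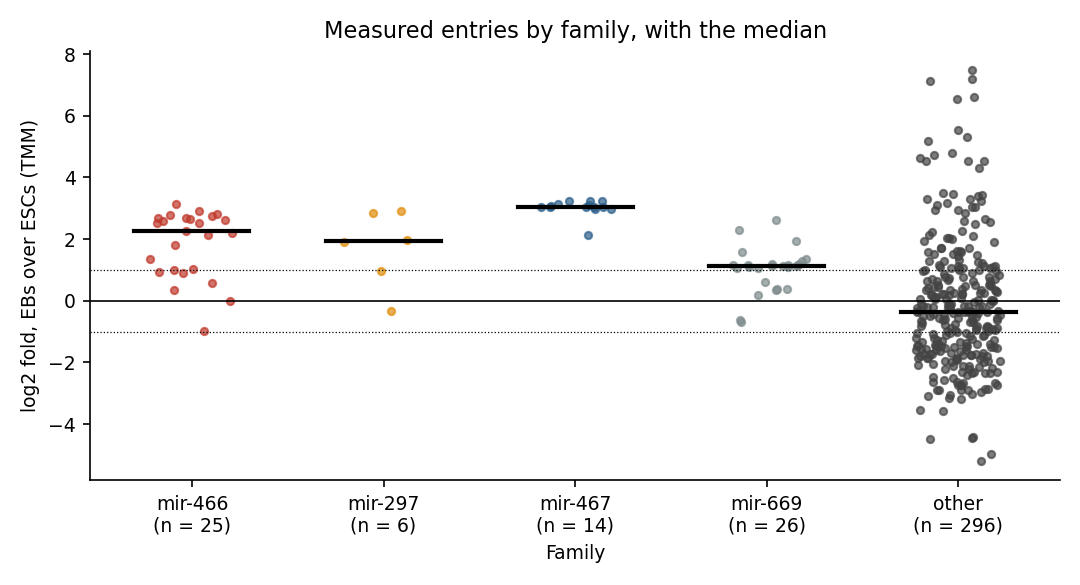
The log2 fold of every measured entry by family (n under each name), with the median as a bar and points spread sideways at random for display. The mir-466, mir-297, mir-467 and mir-669 medians are at 2.25, 1.94, 3.05 and 1.14, and the remaining entries spread on both sides of 0.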

How the data were processed

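Per the labels' protocols, small RNA was isolated with mirVana, amplified into libraries by PCR and read on Ion Torrent PGM chips, and they mention no molecular identifiers. Aligner, counter, genome build, microRNA release and the handling of reads that match several genes are not given in the sources used. The authors deposited raw counts per microRNA entry and a normalized signal, per the file headers, and the signal's equal sets of values per column are those of quantile normalization. Transformed values, in 4 columns, were left aside.

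From mir-664 on (170 rows) counts sat 1 row low and were moved up, after which their rank correlations with the normalized values were 0.995 to 0.998. The counts of mir-99b, lost by this, were rebuilt from its normalized values. A chi-square comparison of the 2 columns of a group gave 0.284 per degree of freedom for EBs and 0.235 for ESCs, below all of 1000 simulated pairs of separate libraries. Each pair was therefore counted once and edgeR's test, planned for separate libraries, was not run.

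Folds used TMM factors (edgeR 4.0.16) over the entries that filterByExpr kept (count of 10, total of 15), and 95% intervals from the exact conditional binomial. The filter applies the count of 10 as a CPM limit, so fewer counts were needed in the shallower EB libraries. Thus mir-669k passed with 6 counts in EBs and 8 in ESCs, and mir-669m-2 with 21.5 in EBs and 14.5 in ESCs, both only through EBs. No fold was given where both groups were at or under 3 counts. The calculation was tested on simulated counts. Shared stretches of 20 bases were sought between GENCODE M21 hairpins. The design asked for shared mature sequences, but RefSeq held those of 4 entries. Full values were given for the 8 most abundant entries of each family, the 5 highest and 5 lowest folds, the most abundant entry of each measured letter, entries at 0 in 1 group, and 2 entries of each comparison family. Other entries, and the groups of letters, were picked with their values in view. The members and lists were chosen with earlier results of these data known. Software was R 4.3.3 with DESeq2 1.42.0, and Python 3.11.15 with scipy 1.17.1 for the intervals.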

Additional observations from a re-analysis of the deposited data

How the results depend on the processing

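No paired analysis was possible because the columns of each group were counted as 1 sample and the results come from no test. The alternatives were library totals, DESeq2 size factors, the quantile-normalized values, no filter, at least 10 counts in each group, leaving out each column, and 1 value per letter. In these, 20 to 26 members were at least 2-fold higher per entry, and 13 of 16 with 1 value per letter. Library totals gave 26, adding mir-466c-1, mir-466c-2, mir-466h and mir-297a-2, and the quantile-normalized values gave 20. Over all measured entries of the table, the share at least 2-fold higher was 33.5% in the main setting. In the alternatives it ran from 28.3% with quantile-normalized values to 38.4% with library totals, and was 30% with 1 value per letter. With library totals 141 of 367 entries were higher, against 123 in the main setting. The rise to 26 members thus went with a rise over the whole table. With DESeq2 size factors and with the quantile-normalized values 1 member, mir-466f-4, was at least 2-fold lower. The mir-466 and mir-297 summed log2 folds were 1.97 and 2.23 with library totals, 1.33 and 1.34 with quantile-normalized values, and 1.87 and 2.40 with 1 value per letter. Of the 40 measured mir-467 and mir-669 entries, 21 were higher in the quantile-normalized values, against 33 in the main setting. With 1 value per letter, 13 mir-467 and mir-669 letters were higher, which counts letters and not entries because the copies were merged. Leaving out 1 column gave 22 to 26 members higher, 0 to 1 lower, a median of 2.11 to 2.45, summed log2 folds of 1.64 to 1.95 for mir-466 and 1.87 to 2.22 for mir-297, and 31 to 33 mir-467 and mir-669 entries higher. The 26 came without either EB column, and included mir-466h, mir-466c-2 and mir-297a-2. Without the first ESC column mir-466h passed the limit and mir-466c-3 did not, at log2 folds of 1.03 and 0.97. The member lower without either ESC column was mir-466f-4. Over the 28 named entries with an interval, 253 of 268 alternative values stayed within the counting interval and no called one changed sign. Dropping the filter, asking for 10 counts in each group or taking 1 value per letter cannot change the fold of a single entry. Values from these settings are in the tally and match by construction. Most of the 15 that moved came from the quantile-normalized values. There mir-466k went from 2.20 to 1.55 and mir-467e from 3.24 to 3.72. The cause of the moves was not tested. Scaling also moved the centre of the table, whose median log2 fold was 0.35 by library totals, 0.07 by TMM, 0.01 by DESeq2 size factors and -0.19 by quantile normalization. Depth limits the 4 entries near the floor.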
